A study of Mus musculus with 12 samples.

Results

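A set of 9 genes of mouse chromosome 10 is described here across the genotypes of a study on interferon-gamma and CD70: Pawr, Tspan8, Ptprr, Frs2, Cpsf6, Nup107, Rap1b, Mdm1 and Dyrk2. They lie on either side of Ifng, the gene for interferon-gamma, which some of the mice lack. A gene was taken as measured where the array had a probe set (the group of probes that reads 1 transcript) named for that gene alone. By this rule 8 of the 9 genes were measured, each by 1 probe set, out of 19935 genes in all, and Frs2 was not analysed for want of such a probe set. The members were chosen by their place near Ifng and, for Pawr, by its differences between the genotypes in these arrays, with the values of all of them known. So the levels and differences of its members are given as a description, with standard errors and no p-value. The members were also part of the limma fit of all genes, and whether they passed its threshold is reported. Given how the members were chosen, these calls are description too and are not read as evidence. The same holds for the counts of fits, without single arrays or under other settings, in which a member's call was kept.

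RNA came from bone marrow of the hind legs of male C57BL/6J mice aged 10 to 12 weeks, from cells enriched on magnetic beads for CD71, the transferrin receptor of red cell precursors. The 12 arrays form 4 groups of 3 mice: CD70TG*Ifng-/- (a CD70 transgene and no Ifng), Ifng-/- (no Ifng, no transgene), CD70TG (the transgene with Ifng intact) and WT (neither change). All groups share sex, age and strain. The labels call the CD70TG line clone F13 and give no promoter for the transgene, and neither the removed part of Ifng nor the origin of the knockout line is given in the sources used here. Each array is a separate mouse.

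Pawr encodes prostate apoptosis response 4, a leucine zipper protein that promotes cell death, binds the transcription factor Wt1 and inhibits atypical protein kinase C. Promoters of genes induced by interferons often hold the motifs called GAS and ISRE. Ifng is made by T and NK cells and acts on many cell types, red cell precursors and macrophages of the marrow among them. Knockout lines made in embryonic stem cells of another strain can keep DNA of that strain around the targeted gene after breeding. Whether these mice carry such DNA was not tested.

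In the GRCm38.p6 assembly Pawr lies at chr10:108332189-108414391, which is 10.0 Mb from Ifng at chr10:118441046-118445894. The other genes lie nearer. Tspan8 (chr10:115816817-115849893) is 2.59 Mb away and Ptprr (chr10:116018188-116274932) 2.17 Mb away. Frs2 (chr10:117070127-117148474) is at 1.29 Mb and Cpsf6 (chr10:117344667-117376998) at 1.06 Mb. Nup107 (chr10:117750621-117792736) is at 0.648 Mb and Rap1b (chr10:117814597-117845974) at 0.595 Mb. Mdm1 (chr10:118141540-118168999), at 0.272 Mb, is the nearest, and Dyrk2 (chr10:118855602-118889245), at 0.410 Mb, is the only listed gene on the far side of Ifng. From Pawr to Dyrk2 the chromosome runs 10.6 Mb and holds 56 measured genes, of which 47 are neither listed nor Ifng itself.

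The promoter windows of Pawr, the gene whose values differed most, and of Nup107, the only listed gene with a match to the GAS motif, are shown from RefSeq (GRCm38.p6), 300 bases around the start of transcription. In the Pawr window (chr10:108331939-108332238, plus strand) capitals mark the 7 GC boxes, the motif GGGCGG read on both strands. In the Nup107 window (chr10:117792656-117792955, minus strand) capitals mark the GAS match.
Pawr: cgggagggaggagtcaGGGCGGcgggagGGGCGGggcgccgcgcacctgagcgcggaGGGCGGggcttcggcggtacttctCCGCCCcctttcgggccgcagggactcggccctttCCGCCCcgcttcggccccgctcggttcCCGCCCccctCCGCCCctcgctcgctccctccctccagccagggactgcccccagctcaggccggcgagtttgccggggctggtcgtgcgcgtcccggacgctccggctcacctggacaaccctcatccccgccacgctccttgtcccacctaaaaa
Nup107: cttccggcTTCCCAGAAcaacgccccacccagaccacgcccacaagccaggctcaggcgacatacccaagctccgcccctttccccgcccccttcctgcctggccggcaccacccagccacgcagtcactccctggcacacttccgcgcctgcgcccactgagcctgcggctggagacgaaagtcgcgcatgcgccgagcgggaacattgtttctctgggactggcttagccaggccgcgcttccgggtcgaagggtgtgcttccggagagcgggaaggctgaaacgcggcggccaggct
The Pawr window holds no match to GAS (TTCNNNGAA, which is its own reverse complement) and none to ISRE (GAAA, any 2 bases, then GAAA, read on both strands). No listed gene had an ISRE match. Over all 32851 promoter windows of the table, 8.3% held GAS, 3.44% held ISRE and 35.7% held a GC box. The share of G and C was 75% in the Pawr window and 68% in the Nup107 window, against a median of 52.7% over all windows. A match describes the letters alone.

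All values are on a log2 scale, with 0 at the median of the gene over the 12 arrays, so levels cannot be compared between genes. Some information on level was kept in the rounding of the deposited numbers. Tspan8, Cpsf6, Nup107 and Rap1b fell in the higher class, with an original log2 value of at least 8 in every array. Pawr, Ptprr, Mdm1, Dyrk2 and Ifng fell in the lower class, where some array lay below 8 and others may lie above it. As a check of that reading, the higher class held 41 of 49 genes of ribosomal proteins and 0 of 1015 genes of olfactory receptors. For red cell precursors, 5 of 7 measured markers fell in the higher class, as did none of the 12 macrophage markers. The macrophage markers had median differences of -3.02 in CD70TG*Ifng-/- against Ifng-/- and -1.95 in CD70TG against WT. Low transgenic arrays alone can thus place them in the lower class, which does not give their level in the other mice. The first 3 principal components held 39.3%, 19.7% and 13.5% of the variance. CD70TG 3 had the highest value on the third component (20.2). Ifng-/- 2 lay at 3.34 on the first, where the other arrays without the transgene lay between -24.6 and -12.5. Results that rest on these 2 arrays are given without them too. CD70TG*Ifng-/- 2 had the highest value on the second component (21.3) and was left out only on its own. Without it limma called 143 genes in CD70TG*Ifng-/- against CD70TG, against 282 with it.

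The targeted gene did not separate the genotypes on these arrays. Ifng read -0.11, 0.20 and 0.02 in CD70TG*Ifng-/- and -0.16, -0.01 and -0.02 in Ifng-/- mice. It read -0.11, 0.05 and 0.01 in CD70TG mice and 0.03, -0.09 and 0.16 in WT mice. The groups overlapped in all comparisons, and which part of the gene the probes read relative to the removed part is not known, so the probe set checks no label. Genes induced by interferon-gamma did separate the transgenic groups: of 12 measured, 10 fell in CD70TG*Ifng-/- against CD70TG, with a median difference of -1.39 and the GTPase Iigp1 at -3.59 ± 0.24 (SE; limma, adjusted p = 2.59e-06). In Ifng-/- against WT, where the median was -0.11, 0 of 12 passed an adjusted p of 0.05 in limma and 0 an unadjusted p of 0.05.

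**Figure D1:**
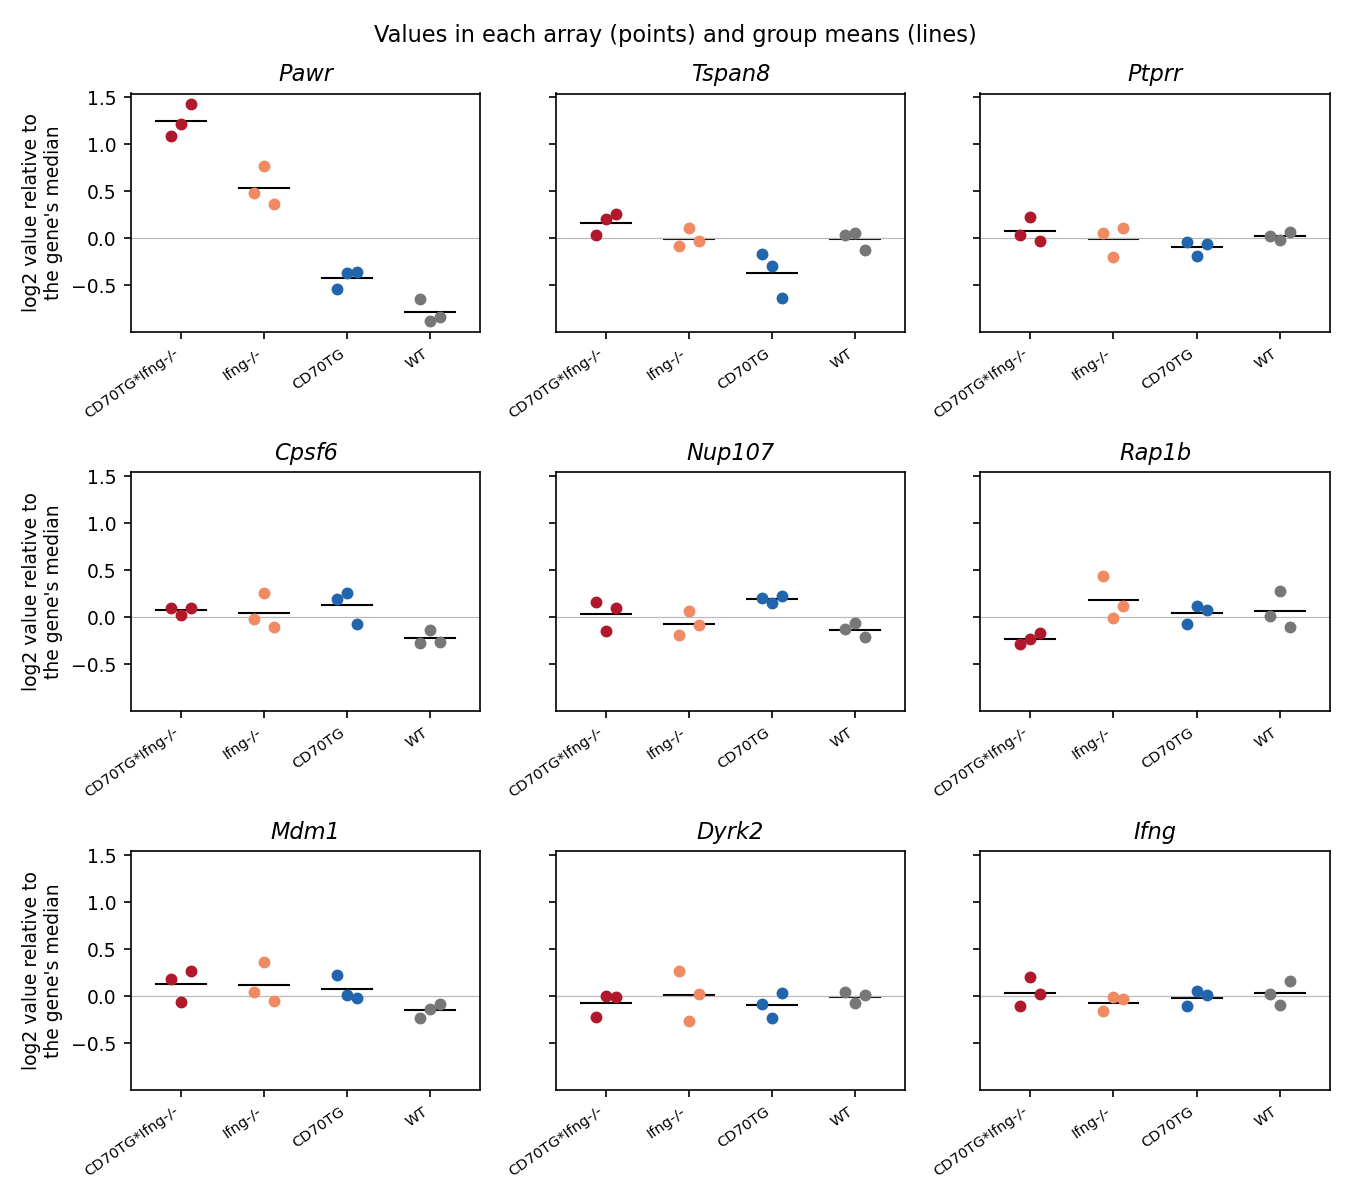
Log2 value of each listed gene and of Ifng relative to the gene's median over 12 arrays (vertical axis), by genotype group (horizontal axis); points are arrays of single mice and lines are group means. The 6 Pawr points without Ifng lie between 0.36 and 1.43, all above the 6 with Ifng, while the groups of Ifng and Dyrk2 overlap.

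Pawr was high in every mouse that lacked Ifng and low in every mouse that had it. It read 1.09, 1.21 and 1.43 in CD70TG*Ifng-/- mice and 0.48, 0.77 and 0.36 in Ifng-/- mice. It read -0.54, -0.37 and -0.36 in CD70TG mice and -0.65, -0.88 and -0.84 in WT mice. The 4 groups did not overlap, and their order from high to low was CD70TG*Ifng-/-, Ifng-/-, CD70TG and WT. The group means were 1.24 ± 0.17, 0.54 ± 0.21, -0.43 ± 0.10 and -0.79 ± 0.12 in that order (SD, n = 3 each).

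Between the lowest array without Ifng and the highest array with it lay a gap of 0.72, the widest of all genes. The next gaps belonged to Prokr1, a receptor for prokineticins, at 0.25 and Asns, asparagine synthetase, at 0.22, both on chromosome 6 and both higher without Ifng. Of all genes, 24 (0.120%) had all 6 arrays without Ifng above the 6 with it, and 14 (0.0702%) had them all below. In 21 genes (0.105%) the 4 groups lay apart in some order, and Pawr alone (0.00502%) had them in the order given above. That order is the one that the Pawr values themselves gave, and Pawr was listed with its values known. So nothing is read from this share or from the rank of the gap.

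Loss of Ifng went with a higher Pawr level in both comparisons that test it, which share no array. In CD70TG*Ifng-/- against CD70TG the difference was 1.67 ± 0.11 (SE), a 3.18-fold difference and the largest increase of all genes. In Ifng-/- against WT it was 1.32 ± 0.11, or 2.50-fold, the second largest increase. Averaged over both, it was 1.5 ± 0.08, or 2.82-fold, again the largest increase of all genes. The difference between these Ifng effects with and without the transgene was 0.35 ± 0.16 and did not pass an adjusted p of 0.05. It was 0.998 under quantile normalization, where it did not pass either, and it passed under array weights.

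Over all genes, limma called 282 genes (1.41%) in CD70TG*Ifng-/- against CD70TG and 1 gene (0.00502%) in Ifng-/- against WT at an adjusted p of 0.05. That 1 gene was Pawr, with 2759 genes at an unadjusted p of 0.05 in the same comparison. It was also the only gene called in both comparisons in the same direction. Since the list was made with such results known, nothing is read from its presence here. Under quantile normalization the Pawr differences were 2.96 in CD70TG*Ifng-/- against CD70TG and 1.97 in Ifng-/- against WT. The second then missed the threshold, and the other alternatives, arrays left out among them, kept both past it.

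**Figure D2:**
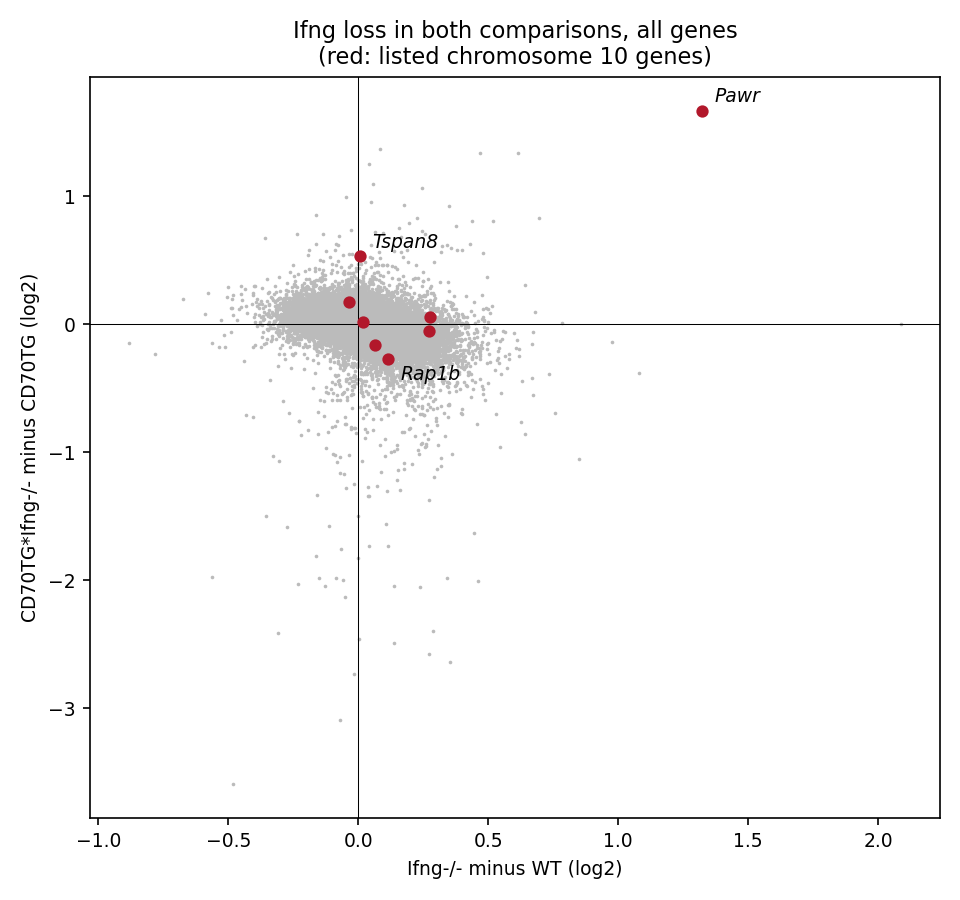
Log2 difference of each of 19935 genes in Ifng-/- minus WT (horizontal axis) and in CD70TG*Ifng-/- minus CD70TG (vertical axis); each grey point is a gene and red points are the 8 measured listed genes. Pawr stands at 1.32 and 1.67, Tspan8 at 0.01 and 0.53, and the other listed genes lie inside the cloud of all genes.

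The CD70 transgene also went with more Pawr. In mice without Ifng, CD70TG*Ifng-/- exceeded Ifng-/- by 0.71 ± 0.11 (SE), or 1.63-fold, which passed the threshold, as 499 genes (2.50%) did. In mice with Ifng, CD70TG exceeded WT by 0.36 ± 0.11, or 1.28-fold, which missed it, although the lowest CD70TG array (-0.54) lay above the highest WT array (-0.65). The means of these neighbours in the order of the groups differed by more than the SD of either, with a difference that did not pass. The CD70TG difference passed when Ifng-/- 2 was left out and when arrays were weighted by quality. Under quantile normalization the transgene differences were 2.05 without Ifng and 1.05 with it.

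The transgene groups differed in macrophage RNA too. The mean over 12 macrophage markers lay between -1.58 and -1.52 in CD70TG*Ifng-/- and between 1.29 and 1.62 in Ifng-/- mice, and all 12 markers fell. It lay between -1.09 and -0.83 in CD70TG and between 0.82 and 1.56 in WT mice, and again all 12 fell. In bulk RNA of this kind, fewer cells of a type and less RNA per cell cannot be told apart. The part of this shift in the Pawr values of the transgenic mice was not tested. In CD70TG*Ifng-/- against CD70TG, where Pawr was higher, all 12 markers had a negative difference, from -1.11 to -0.06 with a median of -0.53. Limma called 3 of them, 8 had an unadjusted p of 0.05 and 10 had groups that did not overlap (17.6% of all genes). In Ifng-/- against WT all 12 had a positive difference, as Pawr did, from 0.20 for Spic to 0.67 for Adgre1 with a median of 0.33. There limma called 0, 5 had an unadjusted p of 0.05 and 1 had groups that did not overlap (18.6%).

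Markers of other cell types were called as well. Of 6 measured B cell markers, 6 fell in CD70TG against WT, 2 fell in CD70TG*Ifng-/- against Ifng-/-, and 2 rose in CD70TG*Ifng-/- against CD70TG. Neutrophil markers fell in 4 of 8 cases in CD70TG against WT, and their mean ranged from -0.64 to 2.02 among the 3 Ifng-/- mice. Of 5 eosinophil and basophil markers, 1 fell in CD70TG*Ifng-/- against Ifng-/- and 3 in CD70TG against WT. Of 7 T and NK cell markers, Cd4 fell in each of these comparisons. Of 7 red cell precursor markers only the haem synthesis gene Alas2 fell, in CD70TG against WT. Markers of megakaryocytes (4 measured) and of stroma and endothelium (6 measured) gave no call by limma in either, with 1 of the 4 at an unadjusted p of 0.05 in each and 0 and 1 of the 6. For Ifng loss limma called no marker of these lists other than the 2 B cell markers. At an unadjusted p of 0.05 in CD70TG*Ifng-/- against CD70TG were 5 B cell, 0 neutrophil, 3 eosinophil and basophil, 2 T and NK cell, 1 red cell precursor, 1 megakaryocyte and 1 stromal and endothelial marker. In Ifng-/- against WT these counts were 2 B cell, 2 T and NK cell and 2 megakaryocyte markers and 0 of each other list. Of all 19935 genes, an unadjusted p of 0.05 was reached by 2239 in CD70TG*Ifng-/- against CD70TG and 2759 in Ifng-/- against WT. In CD70TG*Ifng-/- against Ifng-/- it was reached by 2422 and in CD70TG against WT by 5237. Such counts of the gene lists below stand beside these.

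No call for Ifng loss was made among the genes nearest to Pawr. The 5 nearest measured genes on each side were Myf5, Myf6, Ptprq, Otogl and Ppp1r12a before it and Syt1, Gm5136, Nav3, E2f7 and Csrp2 after it. Ppp1r12a, a subunit of myosin phosphatase, ends 0.0522 Mb from Pawr. Its difference was 0.01 ± 0.11 (SE) in CD70TG*Ifng-/- against CD70TG and 0.28 ± 0.11 in Ifng-/- against WT (limma, adjusted p = 0.984 and 0.294). Syt1, which encodes a calcium sensor of synaptic vesicles, starts 0.0833 Mb beyond Pawr and differed by 0.15 ± 0.09 in the transgenic and -0.11 ± 0.09 in the other comparison (limma, adjusted p = 0.585 and 0.598). In the averaged Ifng comparison the 10 neighbours ran from -0.04 for Nav3 to 0.15 for Ppp1r12a, against 1.5 for Pawr. Limma called 0 of the 10 there and in both single comparisons. An unadjusted p of 0.05 was reached by 0 in the averaged comparison, 0 in CD70TG*Ifng-/- against CD70TG and 2 in Ifng-/- against WT. For the transgene, in CD70TG against WT, 1 of the 10 passed as higher in limma, beside 8.23% of all genes. This was Ppp1r12a at 0.37, where Pawr differed by 0.36 and missed the threshold. The Ppp1r12a call held in 5 of 12 fits without 1 array. It was lost under quantile normalization, centring within level classes and the replicate number as a block.

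Among the 47 other genes between Pawr and Dyrk2 there was no such call either. With the transgene, in CD70TG*Ifng-/- against CD70TG, they ran from -0.81 for Glipr1 to 0.33 for Iltifb, with a median of 0.05 beside 0.02 over all genes. In Ifng-/- against WT they ran from -0.21 for Nav3 to 0.55 for Thap2, with a median of 0.04 beside -0.01 over all genes. Limma called 0 of the 47 in both at an adjusted p of 0.05, and 7 in each had an unadjusted p of 0.05. Of all 19935 genes, 2239 had such an unadjusted p with the transgene and 2759 without it. Averaged over both comparisons, 0 were called, 5 had an unadjusted p of 0.05 (1098 of all genes), and the largest increase was 0.23 for Nap1l1. Leaving out CD70TG 1 or Ifng-/- 1 in turn brought Glipr1, and leaving out CD70TG 3 brought Rab3ip, past the threshold as lower in CD70TG*Ifng-/- than in CD70TG.

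Over the whole of chromosome 10, 10 of 938 measured genes (1.07%) passed in CD70TG*Ifng-/- against CD70TG, beside 1.41% of all genes. In the averaged Ifng comparison 1 of 938 (0.107%) passed, beside 0.381% of all genes.

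**Figure D3:**
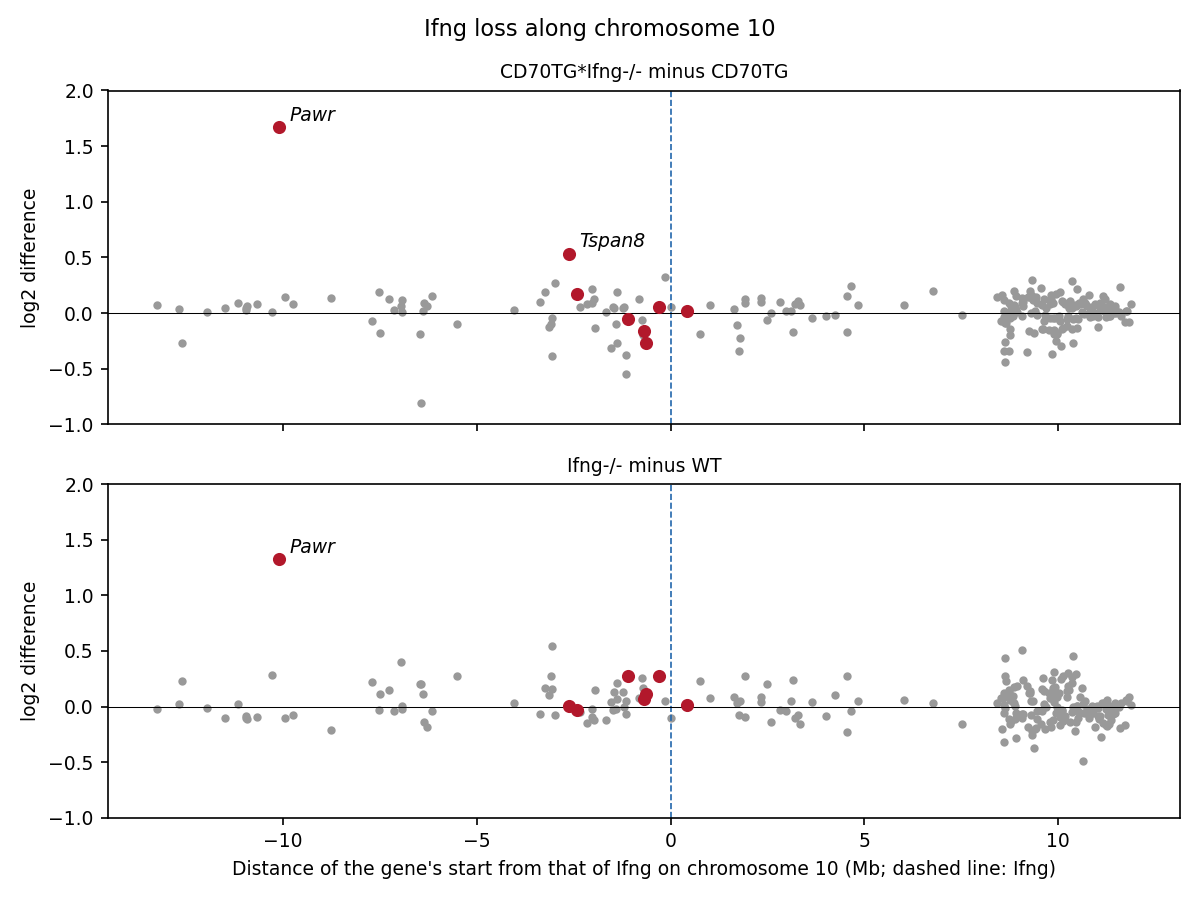
Log2 difference of each measured gene within 15 Mb of Ifng (vertical axes) against the distance of its start from that of Ifng in Mb (horizontal axis), in CD70TG*Ifng-/- minus CD70TG (top) and Ifng-/- minus WT (bottom); red points are the listed genes and the dashed line marks Ifng. Pawr stands alone at 1.67 and 1.32, and the next highest gene from there to Dyrk2 is Tspan8 at 0.53 in the top panel and Thap2 at 0.55 in the bottom panel.

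The same stretch held genes that moved with the transgene, named here after their values were seen. In CD70TG*Ifng-/- against Ifng-/-, 3 of the 47 fell: Lyz2 with a log2 difference of -1.73, Glipr1 with -0.997 and Lyz1 with -0.93 (limma, adjusted p = 0.0179, 0.0287 and 0.038). Of all genes, 2.35% passed as lower there. In CD70TG against WT, Lyz2 fell by 1.25 (limma, adjusted p = 0.0414). It was the only 1 of the 47 to pass as lower, beside 2.70% of all genes. Lyz2 encodes the lysozyme of macrophages and granulocytes, and Lyz1 is a near copy beside it, so their probe sets may share signal. Without single arrays the calls in CD70TG*Ifng-/- against Ifng-/- held in 9 of 12 fits for Lyz2, 8 for Glipr1 and 3 for Lyz1. All were lost without CD70TG*Ifng-/- 1 or 3. That of Lyz2 in CD70TG against WT held in 5. With the replicate number as a block all of these calls were lost. In CD70TG against WT 5 of the 47 genes rose, from 0.34 ± 0.10 for Zdhhc17 to 0.54 ± 0.10 for Cct2, a subunit of the CCT chaperonin (SE; limma, adjusted p = 0.0382 and 0.00346). Of all genes, 8.23% passed as higher in that comparison, and nothing is read from these counts among the 47. The Cct2 call held in all 12 fits without 1 array and the Zdhhc17 call in 6. The latter was lost without CD70TG*Ifng-/- 3, CD70TG 1, CD70TG 2 or any WT array and under quantile normalization. The macrophage markers fell beside these lysozyme genes in both comparisons. Of 8 neutrophil markers, limma called 4 as lower in CD70TG against WT, with a median of -1.48. In CD70TG*Ifng-/- against Ifng-/- it called 0, with a median of -0.97 and 4 at an unadjusted p of 0.05. The part of either cell type in the values was not tested.

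Tspan8, a tetraspanin of the cell surface, was the only other listed gene past the threshold for Ifng loss. It read 0.03, 0.21 and 0.26 in CD70TG*Ifng-/- mice and -0.08, 0.10 and -0.03 in Ifng-/- mice. It read -0.17, -0.30 and -0.64 in CD70TG mice and 0.04, 0.06 and -0.12 in WT mice. The CD70TG mice were low and the other 3 groups overlapped. CD70TG*Ifng-/- exceeded CD70TG by 0.53 ± 0.11 (SE), or 1.45-fold, with no overlap, whereas Ifng-/- and WT differed by 0.01 ± 0.11.

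CD70TG was lower than WT in Tspan8, with a difference of -0.36 ± 0.11, which passed the threshold. The difference between the Ifng effects with and without the transgene was 0.53 ± 0.16 and missed it. Both Tspan8 calls were lost without some single arrays. The difference between CD70TG*Ifng-/- and CD70TG held in 8 of 12 fits without 1 array and was lost without CD70TG*Ifng-/- 2, CD70TG*Ifng-/- 3, CD70TG 2 or CD70TG 3 and without CD70TG 3 and Ifng-/- 2 together, with values from 0.40 to 0.63 over the alternatives. That between CD70TG and WT held in 3 of these 12 fits, those without Ifng-/- 1, Ifng-/- 2 or CD70TG 1. It was lost under array median centring, quantile normalization, single probe sets and the replicate number as a block. It was also lost without CD70TG 3 and Ifng-/- 2 together, and its values ran from -0.51 to -0.22 over all alternatives. CD70TG 3, the lowest Tspan8 array, is also the array that stood apart on the third component.

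Of 16 other tetraspanin genes, limma called 0 in either Ifng comparison, with 3 at an unadjusted p of 0.05 with the transgene and 1 without it. The fall passed for 3 of them in CD70TG*Ifng-/- against Ifng-/-. The largest of these differences was -1.78 for Cd53, a tetraspanin of white blood cells (limma, adjusted p = 0.00181), beside the 12 macrophage markers. Cd63, of lysosomes and granules, fell by 0.74 and Tspan3 by 0.72 (limma, adjusted p = 0.0367 and 0.00972). In CD70TG against WT Cd53 fell by 1.47 and Tspan13 rose by 0.42 (limma, adjusted p = 0.00528 and 0.0342). The Cd53 calls held in all 12 fits without 1 array, and the Tspan13 call in 6. The latter was lost without CD70TG*Ifng-/- 3, CD70TG 1, CD70TG 2 or any WT array and under centring within level classes. The Tspan3 call held in 10 and was lost without CD70TG*Ifng-/- 2 or 3. The Cd63 call held in 5 and was lost without any CD70TG*Ifng-/- array among others. With the replicate number as a block the Tspan13 and Cd63 calls were lost too. The number of tetraspanins that fell in CD70TG*Ifng-/- against Ifng-/- was 7 without CD70TG 3 and Ifng-/- 2.

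Ptprr, a tyrosine phosphatase that binds MAP kinases, stayed near its median. It read 0.03, 0.23 and -0.03 in CD70TG*Ifng-/-, 0.05, -0.20 and 0.11 in Ifng-/-, -0.04, -0.19 and -0.06 in CD70TG, and 0.02, -0.02 and 0.07 in WT mice. CD70TG*Ifng-/- exceeded CD70TG by 0.17 ± 0.09 (SE) with no overlap, CD70TG differed from WT by -0.12 ± 0.09 with no overlap, and none of its differences passed the threshold. Of 10 measured MAP kinases and their phosphatases, 0 were called in either Ifng comparison, with 1 at an unadjusted p of 0.05 with the transgene and 3 without it. Dusp6, a phosphatase of the Erk kinases, was the only call: it fell by 0.72 in CD70TG*Ifng-/- against Ifng-/- and by 0.73 in CD70TG against WT (limma, adjusted p = 0.0254 and 0.0114). The first Dusp6 call held in 7 of 12 fits without 1 array, and was lost without any CD70TG*Ifng-/- array or without Ifng-/- 1 or 3. This call was also lost with the replicate number as a block. The second held in 11 and was lost without CD70TG 1.

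Frs2 encodes the docking protein that ties Fgf receptors to Grb2, Gab1 and Sos1. With no value of its own here, it is represented only by 10 genes of that adaptor chain, of which limma called 0 for Ifng loss (2 at an unadjusted p of 0.05 in each comparison). Sos1, an activator of Ras, rose by 0.36 ± 0.10 (SE) in CD70TG against WT (limma, adjusted p = 0.0373). The call held in 7 of 12 fits without 1 array. It was lost without CD70TG*Ifng-/- 3, CD70TG 1, CD70TG 2, WT 1 or WT 3. It was also lost under quantile normalization and with the replicate number as a block.

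Cpsf6, a subunit of cleavage factor I, which helps choose where messenger RNAs end, was lowest in WT mice. It read 0.10, 0.02 and 0.10 in CD70TG*Ifng-/- mice and -0.02, 0.26 and -0.10 in Ifng-/- mice. It read 0.20, 0.26 and -0.07 in CD70TG mice and -0.28, -0.14 and -0.26 in WT mice. The 9 arrays of the other groups lay above the 3 WT arrays.

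CD70TG exceeded WT in Cpsf6 by 0.35 ± 0.10 (SE), or 1.28-fold, past the threshold, and Ifng-/- exceeded WT by 0.27 ± 0.10, which missed it. The difference of CD70TG*Ifng-/- from CD70TG was -0.06 ± 0.10 and that from Ifng-/- was 0.03 ± 0.10. The call between CD70TG and WT held in 5 of 12 fits without 1 array, being lost without CD70TG*Ifng-/- 1 or 3, CD70TG 1 or 2 or any WT array, and was lost under quantile normalization, centring within level classes and single probe sets. Its values ran from 0.20 to 0.45 over the alternatives.

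Genes of the cleavage and polyadenylation machinery lay higher in CD70TG than in WT together with Cpsf6. Of 15 measured, 7 passed as higher, with a median of 0.30 beside -0.02 over all genes, and 8.23% of all genes passed as higher. Cpsf6 and 5 of the 15 belong to the higher level class. In that class 22.6% of genes passed as higher and the median was 0.19. Cpsf1, the large scaffold subunit of the cleavage complex, had the largest difference at 0.47 ± 0.09 (SE; limma, adjusted p = 0.00587). Nudt21, the direct partner of Cpsf6 in cleavage factor I, differed by 0.22 ± 0.09 and did not pass (limma, adjusted p = 0.125). The count of higher genes ran from 2, without CD70TG 1, to 8 over the fits without 1 array. It was 9 without CD70TG 3 and Ifng-/- 2, 4 under quantile normalization and 5 with the replicate number as a block. Under centring within level classes it was 6, with a median of 0.29. Between CD70TG*Ifng-/- and Ifng-/- the median difference was 0.04, with 0 called by limma and 2 at an unadjusted p of 0.05. For Ifng loss 0 were called, with 0 at an unadjusted p of 0.05 with the transgene and 2 without it.

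Nup107 encodes a subunit of the Y complex, the ring-forming scaffold of the nuclear pore, and was high in CD70TG mice. It read 0.16, -0.14 and 0.09 in CD70TG*Ifng-/- mice and -0.18, 0.06 and -0.08 in Ifng-/- mice. It read 0.21, 0.16 and 0.22 in CD70TG mice and -0.13, -0.06 and -0.21 in WT mice. CD70TG and WT did not overlap and differed by 0.33 ± 0.09 (SE), or 1.26-fold, past the threshold.

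CD70TG*Ifng-/- exceeded Ifng-/- in Nup107 by 0.11 ± 0.09 and overlapped with it. The Ifng differences were -0.16 ± 0.09 with the transgene and 0.07 ± 0.09 without it. The call between CD70TG and WT held in 7 of 12 fits without 1 array. It was lost without any CD70TG array, WT 1 or WT 3. It was also lost under quantile normalization, centring within level classes and the replicate number as a block. Its values ran from 0.18 to 0.36 over the alternatives.

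The other genes of the Y complex lay on the same side. In CD70TG against WT, 5 of 9 passed as higher, all 9 had groups that did not overlap (31.1% of all genes), and they ran from 0.17 for Nup37 to 0.44 for Nup43, with a median of 0.33. Nup133, which joins Nup107 in the stem of the Y, differed by 0.37 ± 0.09 (SE) and Nup160 by 0.34 ± 0.09 (limma, adjusted p = 0.0198 and 0.0293). Of these 9 genes 6 belong to the higher level class, in which 22.6% of all genes passed as higher in this comparison. Centring within level classes left 0 of 9 called, with a median of 0.19. The count ran from 0, without CD70TG 1, to 8 over the fits without 1 array, and was 7 without CD70TG 3 and Ifng-/- 2. It was 2 under quantile normalization and 2 with the replicate number as a block. The median between CD70TG*Ifng-/- and Ifng-/- was 0.04, with 0 called by limma and 1 at an unadjusted p of 0.05. For Ifng loss 0 were called, with 1 at an unadjusted p of 0.05 with the transgene and 3 without it.

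**Figure D4:**
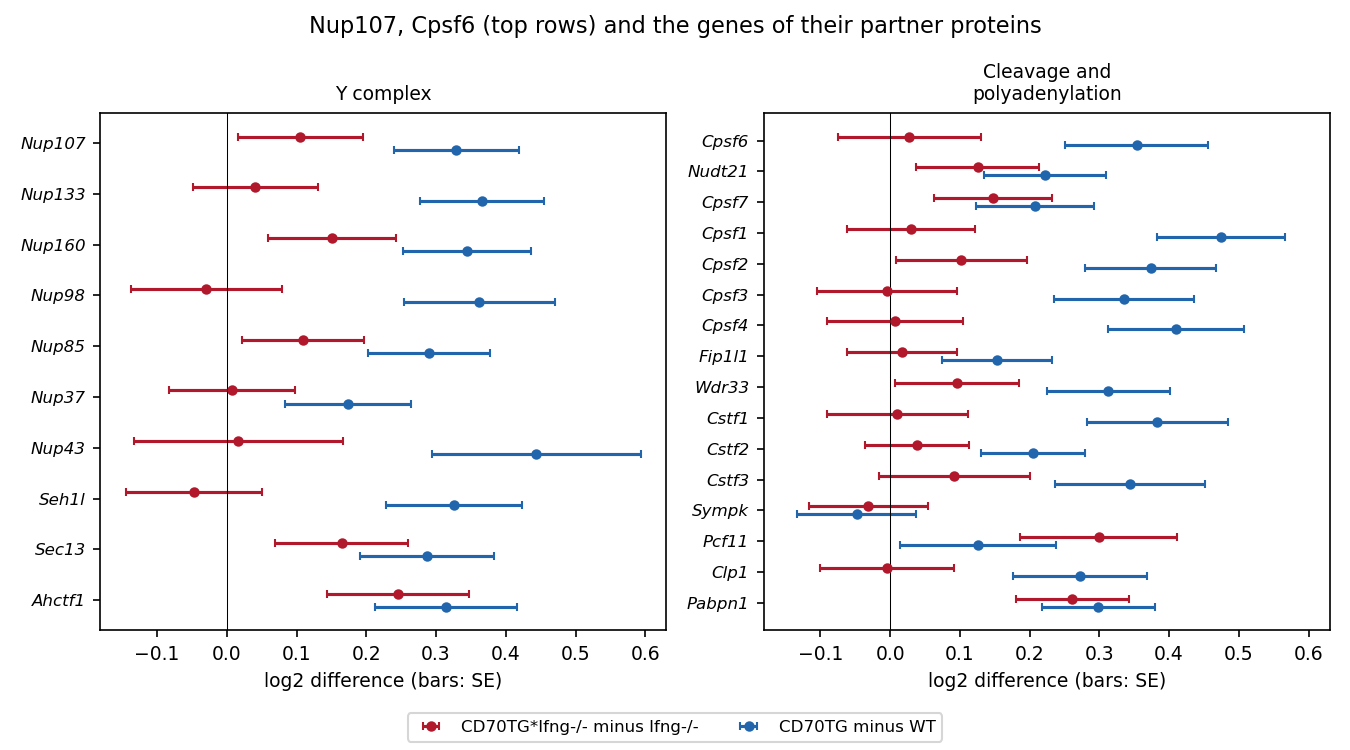
Log2 differences (points) with standard errors (bars) of Nup107 and 9 genes of the Y complex (left) and of Cpsf6 and 15 genes of cleavage and polyadenylation (right), in CD70TG*Ifng-/- minus Ifng-/- (red) and CD70TG minus WT (blue). Nup107 stands at 0.11 in red and 0.33 in blue, and Cpsf6 at 0.03 and 0.35.

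Rap1b, a Ras-like GTPase that switches on integrins, was low in the transgenic mice that lacked Ifng. It read -0.29, -0.23 and -0.16 in CD70TG*Ifng-/- mice and 0.43, -0.01 and 0.11 in Ifng-/- mice. It read -0.07, 0.12 and 0.08 in CD70TG mice and 0.01, 0.28 and -0.10 in WT mice. The CD70TG*Ifng-/- arrays lay below all other arrays. Their difference from Ifng-/- was -0.41 ± 0.12 (SE) and that from CD70TG was -0.27 ± 0.12, and neither passed the threshold.

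The Rap1b difference between CD70TG*Ifng-/- and Ifng-/- passed without Ifng-/- 2, without CD70TG 3 and Ifng-/- 2 together, and under array weights. The macrophage markers, all 12 of which fell in the same comparison, moved with it, and their part was not tested. Ifng-/- and WT differed by 0.12 ± 0.12 and CD70TG and WT by -0.02 ± 0.12. None of 13 genes of the Rap1 switch was called by limma in a comparison of 2 groups. The counts at an unadjusted p of 0.05 were 0 for both Ifng comparisons, 2 in CD70TG*Ifng-/- against Ifng-/- and 3 in CD70TG against WT. Rap1a, the nearest relative of Rap1b, differed by 0.15 ± 0.13 in CD70TG*Ifng-/- against Ifng-/- (limma, adjusted p = 0.687).

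Mdm1, a microtubule-binding protein of centrioles and the listed gene nearest to Ifng, was lowest in WT mice. It read 0.19, -0.07 and 0.26 in CD70TG*Ifng-/-, 0.05, 0.37 and -0.05 in Ifng-/-, 0.22, 0.01 and -0.01 in CD70TG, and -0.23, -0.14 and -0.09 in WT mice. All other arrays lay above the 3 WT arrays. Ifng-/- exceeded WT by 0.27 ± 0.11 (SE) and CD70TG exceeded WT by 0.23 ± 0.11, and CD70TG*Ifng-/- exceeded CD70TG by 0.05 ± 0.11. None of the Mdm1 differences passed the threshold, in the fit or under the alternatives. Of 12 other centriole genes, limma called 0 for Ifng loss, with 1 at an unadjusted p of 0.05 with the transgene and 0 without it. Cep57 rose by 0.42 ± 0.09 in CD70TG*Ifng-/- against Ifng-/- (limma, adjusted p = 0.0187), a call that held in 7 of 12 fits without 1 array and was lost without any CD70TG*Ifng-/- array or without Ifng-/- 1 or 3.

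Dyrk2, a kinase that phosphorylates p53 among other targets, gave no difference above its error. It read -0.22, 0.01 and -0.01 in CD70TG*Ifng-/-, 0.27, -0.27 and 0.03 in Ifng-/-, -0.09, -0.23 and 0.04 in CD70TG, and 0.04, -0.07 and 0.02 in WT mice. All groups overlapped. Its differences were 0.02 ± 0.12 (SE) for Ifng loss with the transgene and 0.02 ± 0.12 without it, -0.08 ± 0.12 for the transgene without Ifng and -0.09 ± 0.12 with it. Of 7 related Dyrk and Hipk kinases, limma called 0 for Ifng loss, with 2 at an unadjusted p of 0.05 with the transgene and 1 without it. Hipk1 fell by 0.34 in CD70TG against WT (limma, adjusted p = 0.0267), a call that held in 7 of 12 fits without 1 array. It was lost without CD70TG 2, CD70TG 3 or any WT array, and without CD70TG 3 and Ifng-/- 2 together.

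**Figure D5:**
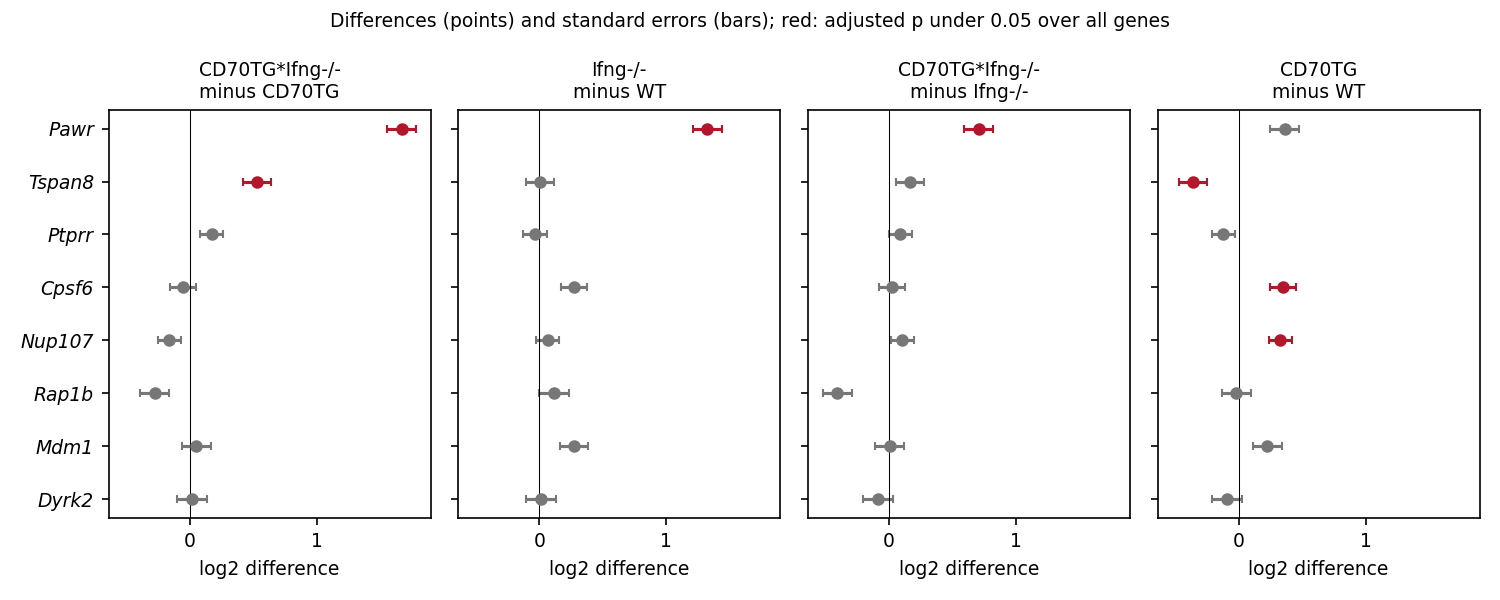
Log2 differences (points) with standard errors (bars) of the 8 measured listed genes in 4 comparisons of genotype groups; red points passed an adjusted p of 0.05 over all genes. Pawr is the only red point in Ifng-/- minus WT, at 1.32, and in CD70TG*Ifng-/- minus Ifng-/-, at 0.71.

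Counted together, 2 of the 8 measured genes passed in CD70TG*Ifng-/- against CD70TG, both as higher (1.41% of all genes passed, 0.426% as higher and 0.988% as lower) and 1 of 8 in Ifng-/- against WT (0.00502%). In the averaged Ifng comparison 1 of 8 passed, as higher (0.381%, with 0.281% as lower). In CD70TG*Ifng-/- against Ifng-/- 1 of 8 passed, as higher (2.50%, with 0.156% as higher and 2.35% as lower), and in CD70TG against WT 3 of 8 did, 2 as higher and 1 as lower (10.9% of all genes, 8.23% as higher and 2.70% as lower). None of the 8 passed for the difference between the Ifng effects (1.89%, with 0.281% as higher and 1.61% as lower). The groups did not overlap for 4 of 8 genes in CD70TG*Ifng-/- against CD70TG (17.6% of all genes), 3 in Ifng-/- against WT (18.6%), 2 in CD70TG*Ifng-/- against Ifng-/- (16.4%) and 6 in CD70TG against WT (31.1%). The list was made with these values known and nothing is read from the counts. Without Pawr, the median of the other 7 genes was 0.02 with the transgene and 0.07 without it for Ifng loss, beside 0.02 and -0.01 over all genes.

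Of 12 measured genes of partners of the Pawr protein and of its pathway, 3 passed the threshold in CD70TG*Ifng-/- against CD70TG (1.41% of all genes) and 3 in CD70TG against WT (10.9%). Wt1, its transcription factor partner, differed by 0.11 ± 0.13 (SE) in CD70TG*Ifng-/- against CD70TG and by -0.24 ± 0.13 in Ifng-/- against WT (limma, adjusted p = 0.805 and 0.422). Among the atypical protein kinases C, Prkcz differed by 0.09 ± 0.09 and -0.03 ± 0.09 and Prkci by -0.15 ± 0.10 and 0.02 ± 0.10 in the same comparisons. In Ifng-/- against WT limma called 0 of the 12, with 2 at an unadjusted p of 0.05.

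The same 3 genes were called in both. With Ifng loss in transgenic mice Sqstm1, a scaffold protein of atypical protein kinase C, rose by 0.35 ± 0.07, while the survival kinase Akt1 fell by 0.45 and Aatf, which binds Pawr, fell by 0.38 (limma, adjusted p = 0.0241, 0.0323 and 0.0423). In CD70TG against WT they moved the other way: Sqstm1 fell by 0.32, Akt1 rose by 0.36 and Aatf rose by 0.51 (limma, adjusted p = 0.0136, 0.031 and 0.00252). These comparisons share the CD70TG arrays. For CD70TG*Ifng-/- against CD70TG the calls held in 8 of 12 fits without 1 array for Sqstm1, 6 for Akt1 and 5 for Aatf. All were lost without CD70TG*Ifng-/- 2, CD70TG*Ifng-/- 3 or CD70TG 3, and without CD70TG 3 and Ifng-/- 2 together. In CD70TG against WT they held in 11 for Sqstm1, which was lost without WT 1, and in 12 for Aatf. The Akt1 call there held in 8 and was lost without CD70TG 2, CD70TG 3, WT 1 or WT 3. It was also lost without CD70TG 3 and Ifng-/- 2 together. With the replicate number as a block the Akt1 call was lost in both comparisons. So was the Aatf call in CD70TG*Ifng-/- against CD70TG.

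The genes whose pattern over the 12 arrays was most like that of Pawr were Nars, an asparaginyl-tRNA synthetase (Pearson r = 0.89), Aim2, a sensor of cytosolic DNA (r = 0.88), Resp18 (r = 0.84), Reln, which encodes the secreted protein reelin (r = 0.84), and Hacd1 (r = 0.83). None of them lies on chromosome 10. The arrays of a group share genotype and cell mix, so these values describe the arrays, with no test. Their averaged Ifng differences were 0.25 for Nars, 0.53 for Aim2, 0.11 for Resp18, 0.65 for Reln and 0.34 for Hacd1, against 1.5 for Pawr. The gene most like each other member had r of 0.93 or more with it: Gpbp1 with Tspan8, Gm11426 with Ptprr, Ubn2 with Cpsf6, Ccdc181 with Nup107, Dst with Rap1b, Ylpm1 with Mdm1 and Ttc7b with Dyrk2. Among the listed genes, Pawr correlated with Mdm1 at r = 0.56, with Rap1b at r = -0.42 and with Dyrk2 at r = -0.07. It correlated with Tspan8 at r = 0.55, with Cpsf6 at r = 0.44, with Ptprr at r = 0.23 and with Nup107 at r = 0.08 over the same arrays.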

How the data were processed

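Total RNA of each of 12 mice was hybridised to a 1-colour Affymetrix whole-transcript array. The authors deposited log2 values from RMA, which corrects background, normalizes between arrays and sums up each probe set; the tool is named per the submitters' processing notes, and its version is not given in the sources used here. Every one of the 28815 probe sets had a median of 0 over the arrays within 5e-07, so each was centred, which no label explains. The log base and direction follow what RMA gives. Array medians lay between -0.0214 and 0.0273, and the precision that can be stated is set by the number of arrays.

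Probe sets were named from GEO's platform annotation: 21780 had 1 symbol, 1605 several and 5430 none. Of the first, 21689 matched a RefSeq gene table (GRCm38.p6) by Entrez identifier, which changed 0 symbols. Probe sets of a gene were averaged (998 of 19935 genes had several). Values stored in single precision keep a rounding step, from which 4211 probe sets (14.6%) were placed at an original log2 value of at least 8 in every array. The tolerance was 0.15 of a step, and all other probe sets formed the lower class.

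Groups came from the labels. A model with 4 group means was fitted to all genes in R 4.3.3 by lmFit and eBayes of limma 3.58.1, with 8 residual degrees of freedom and 6.23 from the prior; statmod 1.5.0 was loaded. Tests were two-sided with Benjamini-Hochberg adjustment over 19935 genes and a threshold of 0.05. The fit was tested on simulated data before use. The members and the gene lists were chosen with earlier results of these data known. Other genes were named by rule: up to 10 neighbours past the threshold for Ifng loss, up to 3 per partner list by smallest p, direct partners, and the genes most correlated with a member (5 for Pawr). Exceptions are marked in the text.

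Alternatives were the replicate number as a block, median centring, quantile normalization, centring within level classes, array weights, the higher level class alone, single probe sets, only the 2 groups compared, and arrays left out. The numbers were not taken to pair the mice: over 18 pairs of arrays with the same number in different groups, deviations from the group means correlated between -0.40 and 0.31, with 6 pairs over 0.1.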

Additional observations from a re-analysis of the deposited data

Results flagged for a closer look

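Of 7035 probe sets that carry no symbol or several and so stand outside the gene table, 3 were called by limma in both Ifng comparisons in the same direction, over 28815 probe sets tested. They are values outside the comparisons of named genes, and no gene is named for them. Probe set 10545086, with no symbol, had an averaged Ifng difference of -6.30. It lay between -3.25 and -2.82 in the 6 arrays without Ifng and between 2.82 and 3.62 in the 6 with it. Its difference was -6.00 ± 0.10 (SE) in CD70TG*Ifng-/- against CD70TG and -6.60 ± 0.10 in Ifng-/- against WT (limma, adjusted p = 2.69e-12 and 8.08e-13), larger in size than that of Pawr and in the other direction.

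Probe set 10545096, with several symbols, had an averaged difference of -3.04, with arrays between -1.35 and -1.14 without Ifng and between 1.14 and 2.30 with it (limma, adjusted p = 7.47e-06 with the transgene and 5.36e-05 without it). Probe set 10605542, also with several symbols, had an averaged difference of -2.30, with arrays between -1.10 and -0.82 without Ifng and between 0.82 and 1.81 with it (limma, adjusted p = 8.78e-06 and 0.000297). All 3 belong to the lower level class, as Pawr does.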

How the results depend on the processing

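Few calls depended on a setting for Pawr and more for the genes with small differences. The sizes of the Pawr differences did move under quantile normalization. They went from 0.71 to 2.05 in CD70TG*Ifng-/- against Ifng-/- and from 0.36 to 1.05 in CD70TG against WT. The signs of all differences of listed genes that passed the threshold were kept under every alternative run. Pawr passed for Ifng loss with the transgene (1.58 to 2.96) in 19 of 19 alternatives and without it (1.21 to 1.97) in 18, all but quantile normalization; as a gene of the lower level class it could not be tried in the higher class alone. For the 47 neighbours, the counts of 0 for Ifng-/- against WT and for the averaged comparison did not move, also not with 25 or 50 genes on each side of Ifng. In CD70TG*Ifng-/- against CD70TG their count of 0 became 12 under array weights, 1 without CD70TG 3 and Ifng-/- 2, and 0 to 1 without single arrays. The cause of these moves was not tested, beyond there being fewer genes or arrays where some were left out.

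Counts over all genes moved more. Ifng-/- against WT had 1 call, and 3 under quantile normalization, 7 under array weights, 16 in the higher level class alone, 4 with single probe sets, 4 without CD70TG 3 and Ifng-/- 2, 2 with only the 2 groups compared, and 1 to 42 without single arrays (42 without WT 2). CD70TG*Ifng-/- against CD70TG had 282, with 3519 under array weights, 152 in the higher class and 136 to 365 without single arrays. The averaged comparison had 76, with 226, 27 and 42 to 108 under the same settings and 183 with single probe sets. CD70TG*Ifng-/- against Ifng-/- had 499, with 1439, 67 and 297 to 868, and 1048 without both arrays. CD70TG against WT had 2179, with 5337, 1104 and 853 to 2721, and 3686 without both. The difference between the Ifng effects had 377, with 2040 under array weights, 175 without both arrays, 82 to 711 without single arrays and 128 with the replicate block. The replicate block left the other counts within 1.5 times, among them 214 in CD70TG*Ifng-/- against CD70TG and 1668 in CD70TG against WT. Among named genes, the block ended the calls of Tspan8, Nup107, Lyz2, Sos1, Tspan13, Akt1 and Ppp1r12a in CD70TG against WT. It also ended those of Lyz2, Glipr1, Lyz1, Dusp6 and Cd63 in CD70TG*Ifng-/- against Ifng-/-, and of Akt1 and Aatf in CD70TG*Ifng-/- against CD70TG. With it, 2 genes of the Y complex and 5 of cleavage and polyadenylation passed as higher in CD70TG against WT, against 5 and 7 without it. The Pawr calls were kept.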
